A study of Mus musculus with 2 samples.

Results

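The 10 genes described here encode lysosomal proteases and proteins of the lysosomal membrane: the cysteine cathepsins Ctsb, Ctsl, Ctss, Ctsz, Ctsh and Ctsc, the aspartic cathepsin Ctsd, and the membrane proteins Lamp1, Lamp2 and Cd63. They were taken by symbol from the 27998 genes of the count tables. That rule used none of their values, but the list was chosen with earlier results of these data known. All 10 were detected in both libraries. Their transcripts were summed over cell classes, which were set by UMIs of marker genes that hold none of the 10.

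Lysosomes are the acidic compartment in which cells break down proteins, lipids and engulfed material. Cathepsins reach them as inactive precursors, are activated by cleavage at low pH and cut proteins there, and LAMP proteins line the membrane and shield it from the enzymes. Macrophages and microglia, the resident phagocytes of the brain, are rich in lysosomes. GALC is itself a lysosomal enzyme, which removes galactose from galactosylceramide and from its toxic relative psychosine. Its loss causes globoid cell leukodystrophy (Krabbe disease), named for brain macrophages swollen with stored lipid.

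CD45+ leukocytes were sorted from brains of C57Bl/6 mice at p21, the age of disease onset, and cells pooled from several animals gave 1 library per genotype: WT littermates (galc+/+) and twitcher mice (twi, galc-/-), both untreated. The design asks how leukocytes of the twi brain differ from those of the WT brain. WT held 1278 barcodes and 3749714 UMIs (median 2216 per barcode), and twi 1220 barcodes and 4807539 UMIs (median 3150), with no barcode sequence in common. Removing barcodes with over 15% mitochondrial UMIs left 1271 WT and 1207 twi cells. With 1 library per genotype there is no replicate error and no test: every interval below is a 95% interval for counting error alone, and a ratio compares these 2 libraries. The pools also differed in sex: 548 twi cells (45.4%) and 0 WT cells had Xist with no Y transcript, so sex and genotype are partly mixed. Galc had 4 UMIs in WT and 8 in twi, and a 3′ count does not read the mutation.

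Marker genes gave, in WT and twi, 28 and 17 microglia-like cells, 36 and 61 monocyte-like, 250 and 71 neutrophil-like, 563 and 170 B-like, 104 and 426 CD8 T-like, 48 and 71 CD4 T-like, and 98 and 95 NK-like. Another 111 and 234 T cells fell into no named subset. Gamma-delta T cells were not set apart, since their receptor genes were not used here. Each class carried its own marker list at a higher level than any other leukocyte list, which the rule largely fixed, since the same lists set the classes. The WT microglia-like cells also carried neutrophil markers (5895 CPM, against 282 in twi) and T cell markers (578 against 156), and the twi monocyte-like cells carried T cell markers (314 CPM against 12.5 in WT). CPM is UMIs of a gene scaled to 1000000 UMIs of the class; a 3′ UMI count does not scale with transcript length.

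The stretch before the start site is shown for 3 of the 4 members whose RefSeq and GENCODE starts coincide (Ctsz, which held neither motif, is not shown), because families of lysosomal and interferon-responsive genes are known for short motifs there. CACGTG is the core of the element bound by TFEB, a master regulator of lysosomal genes, and a pair of GAAA with 2 bases of any kind between them is the core of the element bound by interferon-response factors. The 250 bases upstream of the RefSeq start in build GRCm38.p6 are given 5′ to 3′ on the gene's strand, with matches in capitals. Lamp1 is at chr8:13158911-13159160 (+), Ctss at chr3:95526536-95526785 (+) and Ctsc at chr7:88277835-88278084 (+).
Lamp1: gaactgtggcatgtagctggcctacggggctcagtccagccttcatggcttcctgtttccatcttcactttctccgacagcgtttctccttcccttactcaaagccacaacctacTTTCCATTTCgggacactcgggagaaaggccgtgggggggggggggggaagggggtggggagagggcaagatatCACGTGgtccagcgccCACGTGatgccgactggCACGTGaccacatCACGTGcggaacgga
Ctss: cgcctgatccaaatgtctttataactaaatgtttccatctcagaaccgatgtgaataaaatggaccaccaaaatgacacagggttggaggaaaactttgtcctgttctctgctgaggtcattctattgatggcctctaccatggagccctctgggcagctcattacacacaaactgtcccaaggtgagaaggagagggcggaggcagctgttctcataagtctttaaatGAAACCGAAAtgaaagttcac
Ctsc: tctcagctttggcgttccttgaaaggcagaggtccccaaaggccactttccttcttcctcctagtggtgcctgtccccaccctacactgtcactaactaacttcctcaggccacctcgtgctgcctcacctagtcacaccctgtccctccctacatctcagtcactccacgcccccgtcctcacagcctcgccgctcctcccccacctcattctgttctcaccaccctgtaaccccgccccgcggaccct

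Lamp1 held CACGTG 4 times, with first bases at -61, -45, -28 and -15 from the start, and 1 such GAAA pair on the other strand, at -135. Ctss held no CACGTG and 1 GAAA pair, at -21. Ctsc, the member with the largest microglial ratio below, held neither. Of the 8 members with a window in the RefSeq table (Ctsb and Ctsh had none), Ctsd, Lamp1 and Ctsl held CACGTG, and Ctss and Lamp1 held the GAAA pair. Over all 32851 windows of 250 bases before and 50 after a start, both strands read, CACGTG was in 7.15% and the GAAA pair in 3.44%. A match describes these letters only.

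Microglia-like cells carried the highest level of every member in both libraries, with a single exception. Summed over the 10 genes, they had 22477 CPM in WT and 33879 CPM in twi, against 5743 and 7202 CPM in monocyte-like cells. The next in WT were NK-like (1777 CPM), neutrophil-like (1574) and B-like cells (1525), and CD8 T-like cells were lowest at 778 CPM. The exception was Ctsc, dipeptidyl peptidase I, which activates granule proteases: in WT it was at 664 CPM in monocyte-like and 535 CPM in microglia-like cells, a ratio of 1.24 (0.898 to 1.74) that does not separate them. Lamp1 and Lamp2 in WT, and Ctsh in twi, were also not separated between these 2 classes (ratios 1.09, 1.16 and 1.01, with intervals that held 1).

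Members differed in how far microglia stood above the next class. Ctsl, a cysteine cathepsin of broad substrate range, was at 1241 CPM in WT microglia-like and 71.0 CPM in WT monocyte-like cells (17.5-fold, 10.5 to 31.0), and in twi at 1051 and 99.1 CPM (10.6-fold, 7.18 to 16.0). Ctsd, which degrades bulk protein in the lysosome, ranked NK-like cells second rather than monocytes: 8248 CPM in WT microglia-like, 1235 in NK-like and 272 in monocyte-like cells. Cd63, a tetraspanin of late endosomes and of neutrophil granules, had neutrophil-like cells second, at 393 CPM against 599 in WT microglia-like cells. Ctss, which trims the invariant chain during class II antigen presentation, and Ctsz and Ctsh were next highest in monocyte-like and then B-like cells, both antigen-presenting lineages. For Ctsh in WT, B-like and neutrophil-like cells were not separated (156 and 130 CPM, 1.20, 0.947 to 1.52). Ctsb in WT and Lamp1 in twi had the same order, with B-like cells not separated from the class after them.

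**Figure D1:**
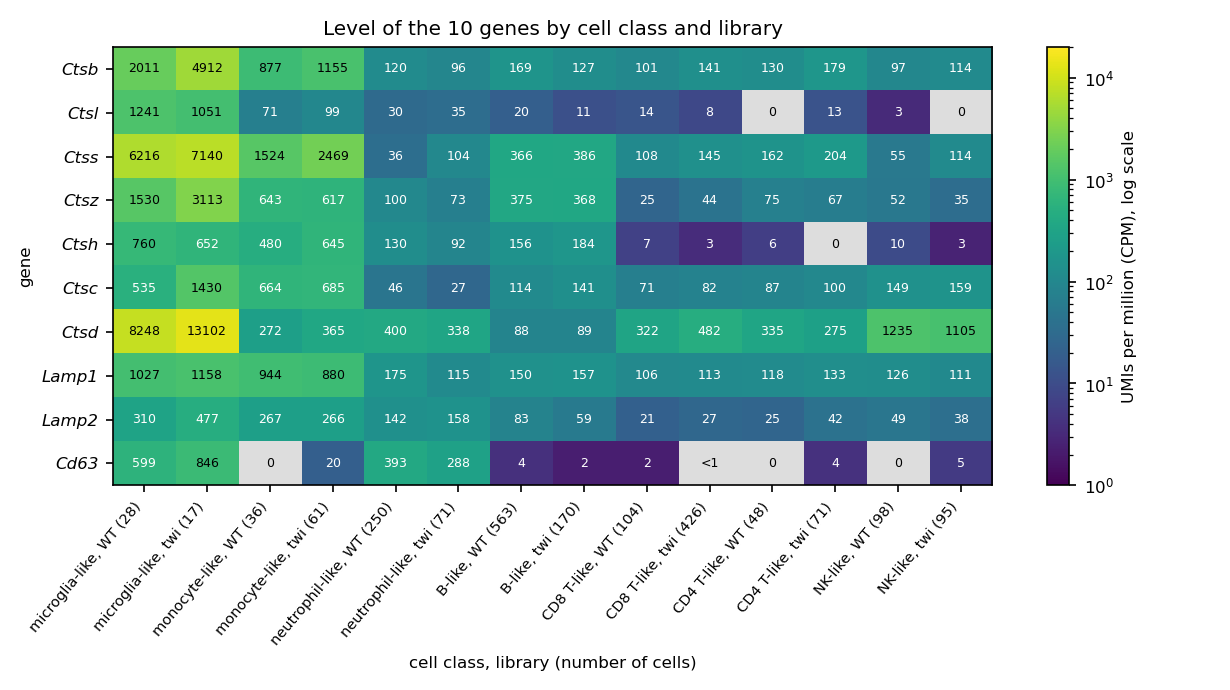
Level of each gene (rows, CPM, colour on a log scale, value printed) in each class and library with at least 10 cells (columns, number of cells in brackets); grey marks values under 1. Microglia-like columns are the brightest for every gene except Ctsc in WT, Ctsd is also high in NK-like cells, and Cd63 is found in microglia-like and neutrophil-like cells and near 0 in lymphocytes.

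Between the libraries, the microglia-like cells of twi carried more of the 10 transcripts than those of WT: 33879 against 22477 CPM, a ratio of 1.51 (1.43 to 1.59). In these sums the ratios were largest for the cathepsins Ctsb, Ctsz, Ctsc and Ctsd. Ctsb, an abundant cysteine protease, was at 2011 CPM in WT and 4912 in twi (2.44, 2.06 to 2.90). Ctsz, a carboxypeptidase, was at 1530 and 3113 CPM (2.04, 1.67 to 2.50), and Ctsc at 535 and 1430 CPM (2.67, 1.93 to 3.76). Ctsd was at 8248 and 13102 CPM (1.59, 1.45 to 1.74). So 4 proteases were higher in twi by at least 1.5-fold with intervals above 1, and Lamp2, 1 isoform of which is the receptor of chaperone-mediated autophagy, was past that fold at 310 and 477 CPM with an interval (0.951 to 2.52) that held 1.

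For the other 5 members the libraries were nearer to each other. Ctss was at 6216 CPM in WT and 7140 in twi (1.15, 1.03 to 1.28), and Cd63 at 599 and 846 CPM (1.41, 0.998 to 2.01). Lamp1, a major glycoprotein of the lysosomal membrane, was at 1027 and 1158 CPM (1.13, 0.854 to 1.49). Ctsl (1241 and 1051 CPM) and Ctsh, an aminopeptidase (760 and 652 CPM), had ratios under 1, 0.847 and 0.858, with intervals that held 1. In total, 5 of the 10 members were higher by at least 1.5-fold and 0 were lower, where 25.9% of the 1218 genes with at least 25 UMIs in these cells were higher by that fold and 21.8% lower. The median log2 ratio of the members was 0.55, beside -0.01 over all genes. The plot of ratios by class shows these values beside the other classes.

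**Figure D2:**
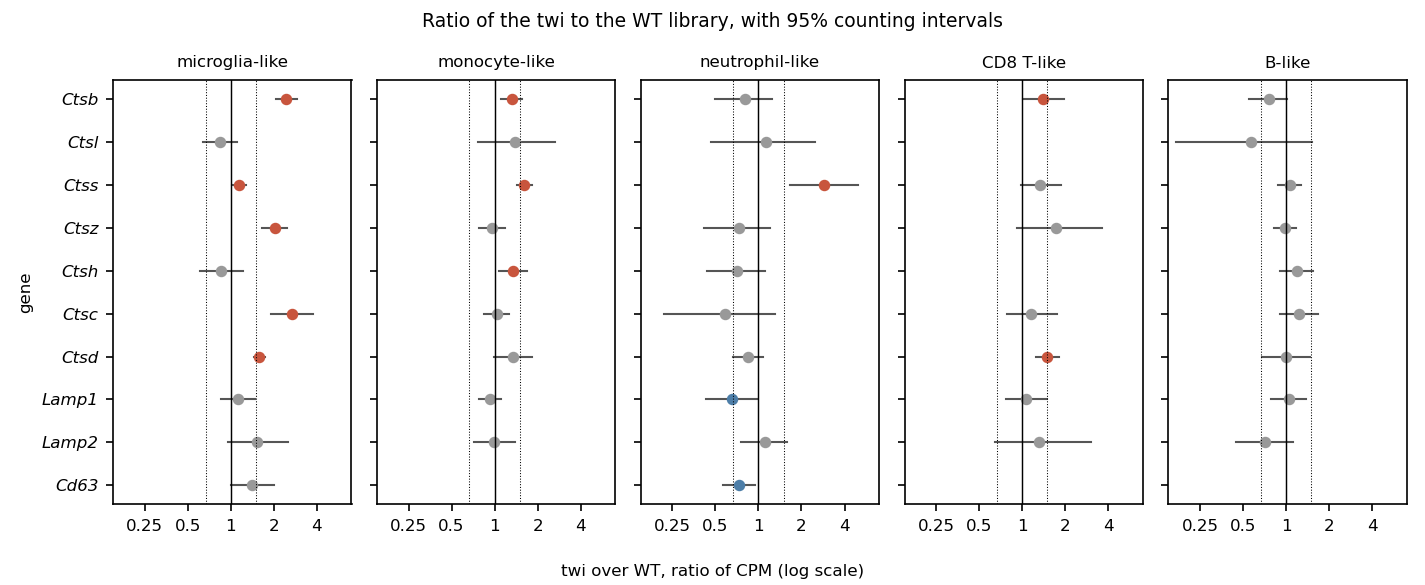
Ratio of the twi to the WT level of each gene (log axis) in 5 classes, with lines for 95% counting intervals (drawn up to the axis limits), dotted lines at 1.5-fold either way, and colour where the interval lies above 1 (red) or below 1 (blue); genes under 25 UMIs are left out. In microglia-like cells Ctsb, Ctsz, Ctsc and Ctsd lie past 1.5, and Lamp2 lies just past it with an interval that holds 1; Lamp1 and Cd63 lie between 1 and 1.5.

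These sums rest on 28 and 17 cells, so each cell was also given the same weight. Per 10000 UMIs of a cell, the 10 members together had a median of 235 in WT (20.2 to 1061) and 257 in twi (65.1 to 639), and the ranges overlap over most of their length. The mean over cells was 1.12 times higher in twi, not 1.51. Cell means in WT and twi were 21.4 and 35.3 for Ctsb, 20.3 and 28.4 for Ctsz, and 5.545 and 14.7 for Ctsc. For Ctsb and Ctsz the libraries were nearer to each other than in the sums, and Ctsz was under 1.5-fold. For Ctsd the median cell was lower in twi, at 81.9 per 10000, than in WT, at 92.2. The deepest contributions came from single cells: 1 twi cell held 37.4% of the twi Ctsb UMIs, and without the cell richest in Ctsb of each library the ratio was 2.11, and that of Ctsd, treated likewise, 1.31. In WT, 1 cell with 1451 UMIs and neither P2ry12 nor Tmem119, genes of resident microglia, stood at 1061 per 10000, the highest of all.

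Keeping only cells with a UMI of P2ry12 or Tmem119 and at most 3 markers of any other lineage left 18 WT and 12 twi cells, with a median of 2582 and 7230 UMIs. In these, Ctsb had a median of 17.0 per 10000 in WT (0 to 30.6) and 32.3 in twi (9.05 to 158), and the mean was 2.45 times higher in twi. Ctsz was at 13.02 (3.78 to 56.4) against 32.0 (13.6 to 53.3), with means 1.88-fold apart, and Ctsc at 7.06 (0 to 18.0) against 16.9 (1.67 to 63.5), 3.02-fold apart. For all 3 the median twi cell lay above the median WT cell, and the ranges overlapped. Ctsd (medians 108 and 108, means 1.21-fold apart) and Ctss (74.0 and 79.8, 1.02-fold) were nearly level in the same cells. Ctsl had means of 11.6 in WT and 9.98 in twi there (medians 10.02 and 10.08), and Ctsh 10.1 and 7.11 (medians 6.59 and 5.42). With at most 1 marker of any other lineage, only 6 WT cells were left, among them the cell at 1061 per 10000, and 7 twi cells, and the summed ratio was 0.921 (0.819 to 1.04), with Ctsb at 1.29, Ctsz at 0.927, Ctsd at 0.982 and Ctsc at 2.04.

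**Figure D3:**
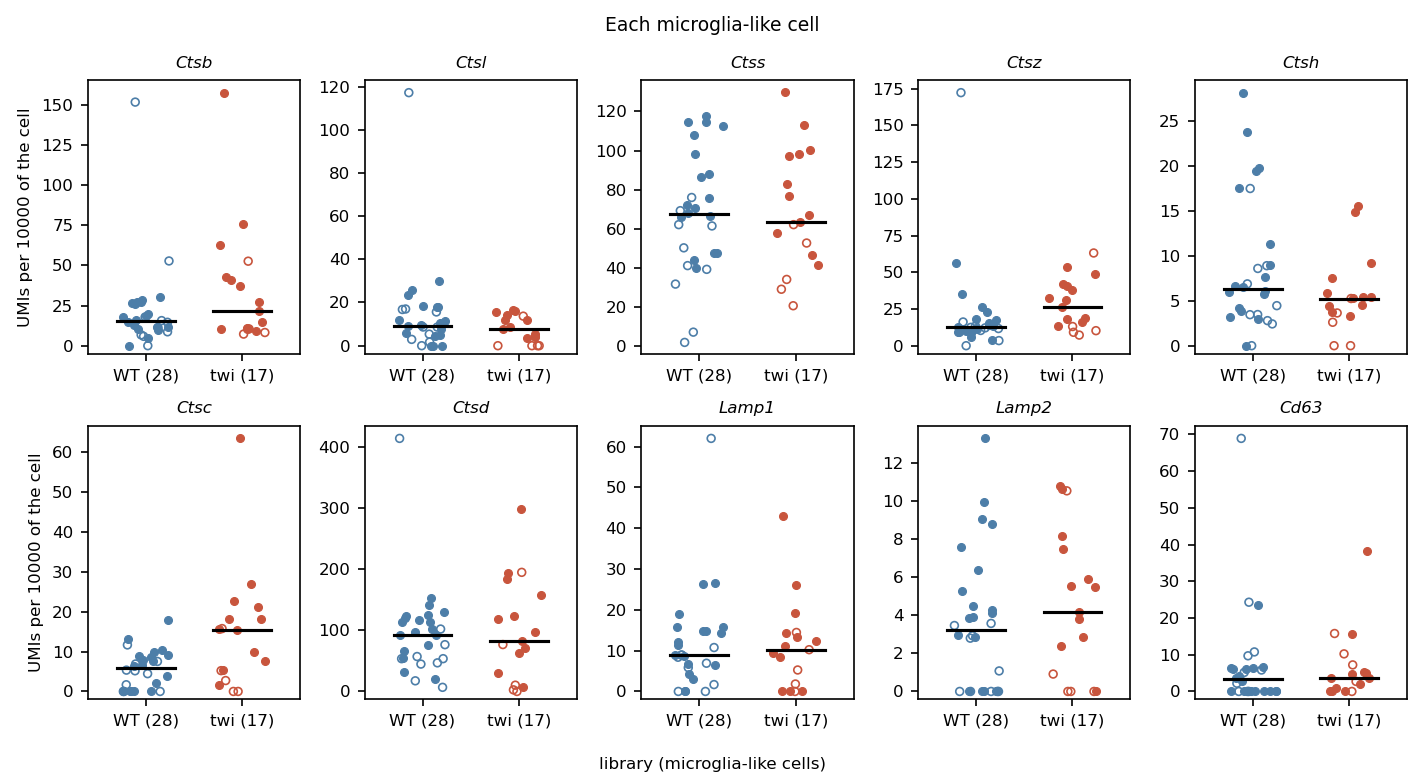
Each microglia-like cell (28 WT, 17 twi) as a point, in UMIs per 10000 UMIs of that cell, one panel per gene with its own linear axis; filled points have P2ry12 or Tmem119 and at most 3 markers of any other lineage, open points do not, and bars are medians over all cells of the library. Most twi cells lie above the WT median for Ctsz and Ctsc, the groups overlap for every gene, and 1 open WT point is the highest or among the highest for Ctsb, Ctsl, Ctsz, Ctsd, Lamp1 and Cd63.

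Other transcripts of these cells differed as well and were measured beside the members. P2ry12 was at 3916 CPM in WT (92.9% of cells) and 856 CPM in twi (70.6%), Tmem119 at 2535 and 1401 CPM, and Cd74, the invariant chain, at 150 and 2432 CPM. S100a8, a neutrophil transcript, was at 15726 CPM in WT and 243 in twi. Their part in the cathepsin ratios was not tested beyond the restricted cells above. In the 16 WT and 4 twi cells with a Y transcript and no Xist the summed ratio of the 10 members was 2.30 (2.12 to 2.49).

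In monocyte-like cells the clearest difference was in Ctss. It was at 1524 CPM in WT and 2469 in twi (1.62, 1.43 to 1.84), with a cell median of 17.5 per 10000 in WT (2.25 to 42.4) and 24.5 in twi (0 to 141). It was the single member past 1.5-fold, and 0 were lower, beside 10.3% of genes higher and 14.4% lower in this class. In cells with at most 3 markers of any other lineage the Ctss ratio was 1.39, and after thinning every cell to 1000 UMIs it was 1.36. Ctsb (877 and 1155 CPM, 1.32, 1.11 to 1.56) and Ctsh (480 and 645 CPM, 1.34, 1.07 to 1.70) were higher in twi by less than 1.5-fold. The 10 members together were at 5743 and 7202 CPM (1.25, 1.17 to 1.34), and the median log2 ratio of the 9 with at least 10 UMIs was 0.40, against -0.10 over all genes.

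The rest of the monocytic members were not separated between the libraries or were too few to compare. Ctsz (643 and 617 CPM), Ctsc (664 and 685), Lamp1 (944 and 880) and Lamp2 (267 and 266) had ratios between 0.933 and 1.03 with intervals that held 1. Ctsl (71.0 and 99.1 CPM) and Ctsd (272 and 365 CPM) had ratios of 1.40 and 1.35, with intervals that also held 1. Cd63 had 0 UMIs in 36 WT cells, which allows a share of cells with a UMI of up to 8.33% (3 counts of 36), and 7 UMIs in 2 of 61 twi cells, 85.7% of them in 1 cell.

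The Ctss difference was not the same in the main types of monocyte. Cells with more of Ly6c2, Ccr2, Chil3 and F13a1, genes of classical monocytes, numbered 23 in WT and 42 in twi, and had Ctss at 1296 and 2488 CPM (1.92, 1.66 to 2.22). Cells with more of Ace, Treml4, Nr4a1 and Cd300e, genes of patrolling monocytes, numbered 12 and 16, and had Ctss at 2660 and 2114 CPM (0.794, 0.591 to 1.07). Within WT, Ctss and Ctsb were thus higher in the patrolling type, Ctsb at 1633 against 726 CPM, and in twi Ctsb was at 1946 against 1022 CPM. The difference between the 2 ratios has no replicate test.

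Neutrophil-like cells had the only high level of Cd63 outside microglia. Cd63 was at 393 CPM in WT, in 48.0% of 250 cells, and at 288 CPM in twi, in 38.03% of 71 cells (0.733, 0.563 to 0.943). B-like cells, a lymphocyte class with little of this transcript, had it in 0.888% and 0.588% of cells at a similar depth (medians of 2003 and 2212 UMIs, against 2452 and 2362 in neutrophil-like cells), so the neutrophil share lay far above that background. Ctsd was the other main member, at 400 and 338 CPM (0.845, 0.661 to 1.07). The 10 members together were at 1574 and 1325 CPM (0.842, 0.746 to 0.948), but when every cell had the same weight the ratio was 1.01. Ctsc (46.3 and 26.9 CPM) and Lamp1 (175 and 115 CPM) were lower in twi by at least 1.5-fold and Ctss was higher. The Ctsc interval (0.220 to 1.31) held 1, and 1 cell held all of its 7 twi UMIs and another 53.7% of its WT UMIs. That is 1 of 10 higher beside 7.01% of genes, and 2 of 10 lower beside 38.3%, and the median log2 ratio of -0.37 was near that of all genes, -0.33. Lamp1 turned to 1.28 with equal weight per cell.

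Ctss in neutrophils rested on 1 cell. It was at 36.2 CPM in WT and 104 in twi (2.87, 1.65 to 4.94), but 66.7% of the twi UMIs came from 1 cell, without which, and without the richest WT cell, the ratio was 1.23. Haemoglobin and Alas2 transcripts took 110907 CPM of the twi neutrophil-like UMIs and 17880 CPM of the WT ones. With haemoglobin, mitochondrial and ribosomal protein genes left out of the total, the summed ratio of the 10 members was 0.890 (0.789 to 1.00).

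Members also differed by neutrophil maturity. Cells with more of the granule genes Ngp, Ltf and Camp, made by immature neutrophils, numbered 68 in WT and 7 in twi, and cells with more of Retnlg, Cxcr2, Mmp9 and Il1r2, genes of mature ones, 123 and 47. Ctsd was lower in the granule-high cells of both libraries, at 255 against 633 CPM in WT and 80.6 against 535 CPM in twi. The twi value rested on 6 UMIs in 7 cells. In twi the 10 members together were also lower in the granule-high than in the granule-low cells (0.33, 0.235 to 0.456), unlike in WT (1.045, 0.918 to 1.19). Ctsl was lower in the granule-high cells of WT, at 13.8 against 61.4 CPM on 5 and 16 UMIs (0.225, 0.0645 to 0.6435). In twi Ctsl had 0 against 6 UMIs, with an interval (0 to 1.19) that held 1. Lamp2 had ratios of 0.847 (0.544 to 1.325) in WT and 0.306 (0.0908 to 0.822) in twi. The differences of several other members, Cd63, Lamp1 and Ctsc among them, were not alike in the libraries. In WT, Cd63 was at 465 CPM in the granule-high and 288 in the granule-low cells, Lamp1 at 210 and 92.1, and Ctsc at 83.0 and 26.9 CPM. In twi, with 7 granule-high cells, Cd63 was at 255 and 229 CPM (1.11, 0.577 to 2.12). There Lamp1 was lower in the granule-high cells at 53.7 against 172 CPM, and Ctsc had 0 UMIs in them against 66.9 CPM. The Ctsc values rested on single cells: 1 cell held 53.7% of the WT UMIs of the class, and 1 cell all 7 twi UMIs. Between the libraries, the 10 members together were at 1596 CPM in WT and 632 in twi in granule-high cells (0.396, 0.287 to 0.533). In granule-low cells they were at 1527 and 1911 CPM (1.25, 1.05 to 1.49). Of the 200 granule-low twi UMIs 26 were of Ctss, and 1 cell held 66.7% of the twi Ctss UMIs of the class. The granule-high share of the class was 27.2% in WT and 9.86% in twi.

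In CD8 T-like cells, Ctsd was the leading member and was higher in twi. It was at 322 CPM in WT and 482 in twi (1.496, 1.25 to 1.80), just inside the 1.5-fold limit, with a UMI in 60.6% and 80.3% of cells, or 20.4% and 34.0% after thinning to 1000 UMIs. Ctsb was at 101 and 141 CPM (1.39, 1.01 to 1.96), and Ctss at 108 and 145 CPM (1.34, 0.982 to 1.87). The 10 together were at 778 and 1047 CPM (1.35, 1.20 to 1.51). Ctsz was the 1 of 7 members with at least 25 UMIs past 1.5-fold, at 25.3 and 43.7 CPM on 11 and 88 UMIs with an interval (0.919 to 3.58) that held 1, beside 20.5% of genes higher and 8.03% lower. Lamp1, whose protein reaches the surface of killer cells on degranulation, was at 106 and 113 CPM (1.06, 0.772 to 1.495), an interval that held 1.

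NK-like cells had the highest Ctsd of the lymphocytes in both libraries. Ctsd was at 1235 CPM in WT, in 92.9% of 98 cells, and at 1105 CPM in twi, in 93.7% of 95 cells (0.895, 0.776 to 1.03). Ctss was the 1 of 7 members past 1.5-fold, at 55.1 and 114 CPM on 17 and 42 UMIs (2.06, 1.15 to 3.86), with 10.1% of genes higher and 11.1% lower in this class. The sum was at 1777 and 1684 CPM (0.948, 0.844 to 1.07).

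In B-like cells the sum was the same in both libraries, 1525 CPM each (1.00, 0.914 to 1.09), and Ctss (366 and 386 CPM), Ctsz (375 and 368) and Ctsh (156 and 184) led it. Ctsl, on 25 and 5 UMIs, was the 1 of 9 lower by 1.5-fold, beside 12.3% of genes lower and 6.84% higher. Its interval (0.169 to 1.505) held 1. Some members differed by B cell stage. Cells with more of the precursor genes Vpreb1, Igll1, Dntt, Rag1 and Akap12 (130 WT cells) had Ctsh at 9.13, Ctss at 143 and Ctsz at 149 CPM, and cells with more of the class II genes and Ms4a1 and Cd83 (339 WT cells) had them at 256, 491 and 515 CPM. Ctsc was also lower in the precursor cells of both libraries. It was at 70.0 against 152 CPM in WT (0.4615, 0.281 to 0.729) and 63.6 against 175 CPM in twi (0.364, 0.128 to 0.846). The WT ratios of the precursor to the class II-high cells lay between 0.697 and 1.501 for Ctsb, Ctsd, Ctsl, Lamp1 and Lamp2. In twi the 27 and 122 such cells had Ctsh at 31.8 and 256, Ctss at 21.2 and 555, and Ctsz at 95.4 and 448 CPM. The equal sums of the class did not hold in both parts. In precursor cells the 10 members together were at 925 CPM in WT and 551 in twi (0.596, 0.435 to 0.802). In class II-high cells they were at 1922 and 1918 CPM (0.998, 0.9035 to 1.10). The plot of levels in parts of a class shows Ctsh in these cells beside Ctss in the monocytes and Ctsd in the neutrophils.

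**Figure D4:**
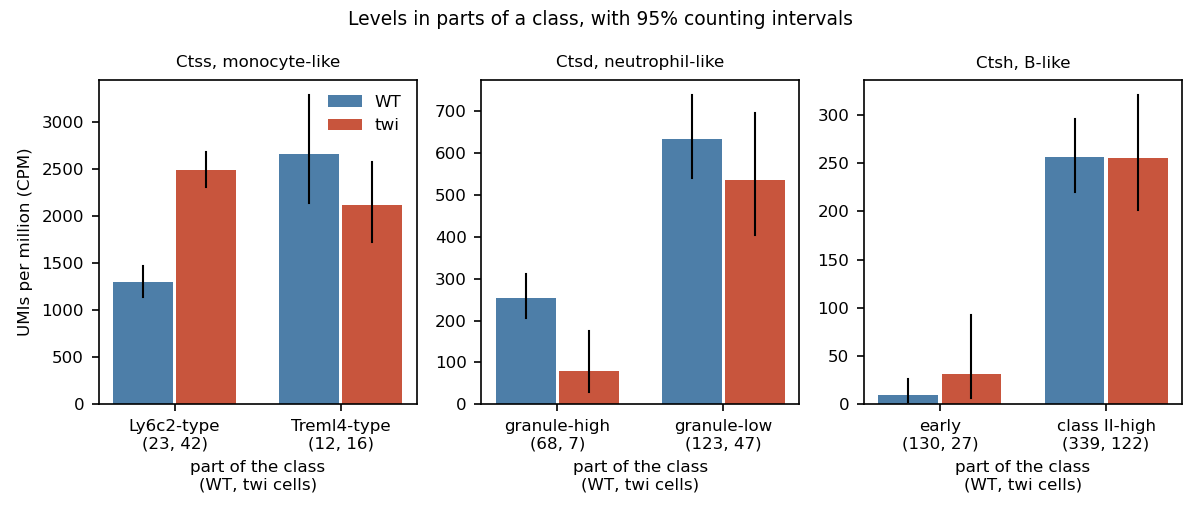
Level of 1 gene in 2 parts of a class (CPM, linear axes from 0) in WT (blue) and twi (red), with the number of WT and twi cells in brackets and 95% counting intervals as lines. Ctss is higher in twi than in WT in Ly6c2-type but not in Treml4-type monocytes, Ctsd is higher in granule-low than in granule-high neutrophils, and Ctsh is high in the class II-high B cells of both libraries.

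In the remaining T cells the sums differed less between the libraries than in CD8 T-like cells. Lamp2 was the single member with at least 25 UMIs past 1.5-fold. In CD4 T-like cells 0 of 6 members were past 1.5-fold (12.3% of genes higher, 9.31% lower), and the sum was at 938 and 1017 CPM (1.08, 0.882 to 1.34). In T cells of no named subset Lamp2 was higher in twi, at 17.9 and 48.8 CPM on 5 and 39 UMIs (2.73, 1.07 to 8.86), 1 of 7 members beside 18% of genes higher and 9.58% lower. Among those with a Y transcript and no Xist the Lamp2 ratio was 1.225 (0.291 to 5.90). Over all T cells of no named subset Ctsd was at 405 and 482 CPM (1.19, 0.963 to 1.48). The sum of the 10 members in them was at 967 and 1121 CPM (1.16, 1.01 to 1.33), an interval above 1.

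Over all cells together, the libraries differed much less than the microglia-like cells did: the 10 members summed to 2195 CPM in WT and 2352 in twi (1.07, 1.04 to 1.10), a direction that turned with equal weight per cell (0.946) and on thinning to 1000 UMIs (0.910). In a ratio over all cells taken alone, fewer cells of a type and less RNA per cell cannot be told apart. Cd63 was at 112 and 37.99 CPM (0.339, 0.283 to 0.405) and Ctsh at 136 and 90.2 CPM (0.664, 0.583 to 0.757), the 2 of 10 lower by 1.5-fold (15.1% of genes), and 0 were higher (11.2%). With the WT level of each class held fixed and each class's share of the twi UMIs put in, the ratio would be 0.352 for Cd63 and 0.586 for Ctsh. The same calculation gave 0.926 for Lamp1, against 0.912 measured, and 0.970 for Ctsb and 1.03 for Ctsd, against 1.37 (1.26 to 1.49) and 1.36 (1.29 to 1.44) measured, and 0.849 for the sum. For the other 5 it gave 0.807 for Ctsl (0.748 measured), 0.869 for Ctss (1.19), 0.622 for Ctsz (0.775), 0.983 for Ctsc (1.23) and 0.633 for Lamp2 (0.731).

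The classes that held each transcript differed accordingly. Microglia-like cells held 2.50% of all UMIs in WT and 2.15% in twi, but 25.6% and 30.9% of the members' UMIs. They held 60.4% and 58.7% of Ctsl, and 38.1% and 38.3% of Ctsd. For Cd63, neutrophil-like cells held 83.1% in WT and 41.2% in twi, and microglia-like cells 13.4% and 47.8%. For Ctsz, B-like cells held 50.9% in WT and 17.8% in twi, and for Ctsh, monocyte-like cells held 22.6% and 52.8%.

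**Figure D5:**
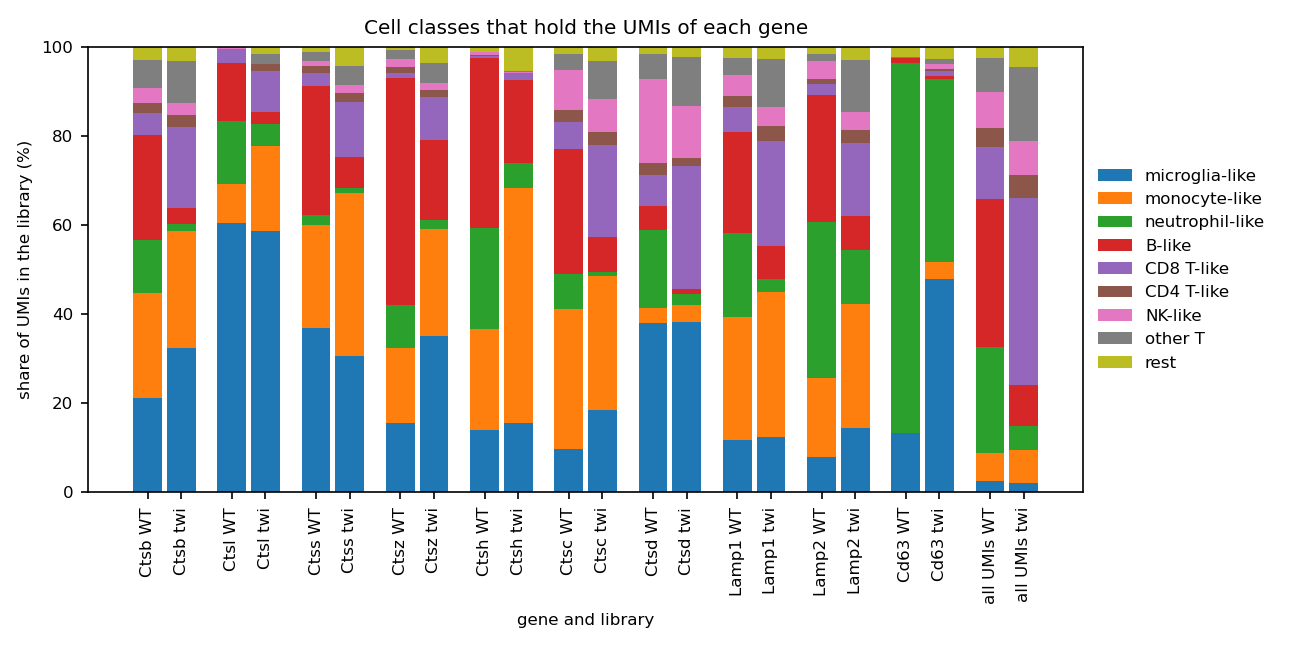
Share (%) of the UMIs of each gene, and of all UMIs, held by each cell class in WT and twi, as stacked bars that add to 100%. In WT, microglia-like cells hold 2.50% of all UMIs but 60.4% of the Ctsl UMIs, and neutrophil-like cells hold 83.1% of the Cd63 UMIs.

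The other lysosomal genes of the microglia-like cells differed in both directions, at shares no higher than those over all genes. Of 102 such genes in 7 groups, 33 had the 25 UMIs needed, and 7 were higher and 6 lower in twi by 1.5-fold, beside the 25.9% and 21.8% over all genes. Among the cystatins, inhibitors of cysteine cathepsins, 3 were measured, and 2 were higher in twi: Cstb, a cytosolic inhibitor (128 and 554 CPM, 4.32, 2.29 to 8.84), and Cst7, encoding cystatin F, an inhibitor of cathepsin C (53.5 and 204 CPM, 3.82, 1.40 to 12.96). Cst3, the secreted cystatin C, was lower, at 45649 and 16711 CPM (0.366, 0.346 to 0.387). Of 3 sorting genes, Grn, encoding progranulin, was higher at 1134 and 2772 CPM (2.45, 1.95 to 3.09) and 0 were lower.

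The other groups were mixed. Of 5 other proteases, Tpp1, a tripeptidyl peptidase, was higher on 12 and 21 UMIs and Ctsf, a cysteine cathepsin, lower on 30 and 12. The Tpp1 interval (0.748 to 3.55) held 1. Of 10 hydrolases, Gusb (235 and 506 CPM), Fuca1 (203 and 379 CPM) and Npc2, a cholesterol carrier (588 and 1216 CPM), were higher, and Neu1, a sialidase (268 and 77.8 CPM), and the phospholipase Pla2g15 (278 and 136 CPM) lower. Of 3 other membrane genes Laptm4a was lower (588 and 292 CPM), and of 8 subunits of the V-ATPase, the proton pump of lysosomes, Atp6v0d1 was lower (214 and 77.8 CPM) and 0 were higher. Of the regulators of lysosome number only Lamtor4 had enough UMIs (225 and 185 CPM), so Tfeb and its relatives could not be compared at this depth. In monocyte-like cells, counted over the same groups, 5 of 48 genes were higher and 5 lower (over all genes, 10.3% higher and 14.4% lower), and in CD8 T-like cells 16 of 63 were higher and 1 lower (20.5% and 8.03%). In neutrophil-like cells 7 of 51 were higher and 12 lower (7.01% and 38.3%). Of the 9 cystatins among these 51, 6 were higher and 1 lower. They include stefin A genes, close copies whose reads can be split between them.

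Across the 14 groups made by the 7 named classes in both libraries, the 10 genes whose log2(CPM + 10) most resembled that of the summed members, of 7184 genes, included Cyfip1 and Aif1 (Pearson r 0.979 each), P2ry6, Rnase4, Grn, Man2b1, Cx3cr1, Cst3 and Fcgr1 (0.958). Cx3cr1 is one of the microglia markers used to set the classes. Among the members, Ctsb was nearest to the sum (0.961), and Cd63 (0.622) and Ctsd (0.747) farthest. These are descriptions over groups that share 2 libraries, and the sum includes each member.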

How the data were processed

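CD45+ cells were isolated enzymatically, which can itself alter transcripts, and sequenced with 10x 3′ v2 chemistry. The deposited values are raw UMI counts per gene and barcode. STAR was the authors' aligner; they dropped poorly mapped reads and set the UMI threshold for calling a barcode a cell from each library. The submitters' processing notes name Cell Ranger 2.1.1 and mm10, and the annotation release is not given in the sources used here.

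A cell took the lineage with most distinct markers detected (at least 2, no tie), and T cells were divided by Cd8a or Cd8b1 and Cd4. Gamma-delta T cells were not set apart, because the receptor genes meant to mark them were not used here. The parts of classes were chosen after the data were seen. No doublet caller was run: ties were set apart, and sums were repeated in cells with few markers of other lineages.

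UMIs were summed per class and library. CPM had exact Poisson, ratios exact conditional and shares exact Clopper-Pearson intervals at 95% (scipy 1.17.1, Python 3.11.15). Medians took genes with at least 10 UMIs and a pseudocount of 0.5, and counts past 1.5-fold genes with at least 25. Scripts were tested on simulated data. All 10 members were named in every class, with lysosomal genes past 1.5-fold in microglia-like cells (in a list without any, its 3 with most UMIs) and the 10 genes most like the sum, of which 1 is not reported here. The members and lists were chosen with earlier results of these data known.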

Additional observations from a re-analysis of the deposited data

Results flagged for a closer look

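The sum of the 10 members differed between the libraries in opposite directions in different classes. Among the named classes it was higher in twi in microglia-like cells (1.51, 1.43 to 1.59), monocyte-like cells (1.25, 1.17 to 1.34) and CD8 T-like cells (1.35, 1.20 to 1.51). It was lower in neutrophil-like cells (0.842, 0.746 to 0.948). Each of these counting intervals lay on 1 side of 1. With 1 library per genotype the difference between classes was not tested. In neutrophil-like cells the direction rested on how cells were weighted, since the ratio was 1.01 with equal weight per cell. The ratio was 0.396 (0.287 to 0.533) in granule-high and 1.25 (1.05 to 1.49) in granule-low cells. Of the 200 granule-low twi UMIs 26 were of Ctss, and 1 cell held 66.7% of the twi Ctss UMIs of the class. In microglia-like cells the ratio of the sum turned to 0.921 (0.819 to 1.04) in the 6 WT and 7 twi cells with at most 1 marker of any other lineage. Those 6 WT cells included the cell at 1061 per 10000, the highest of all.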

How the results depend on the processing

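With 1 library per genotype no replicate could be left out, and the depth of 17 to 28 microglia-like cells limits every microglial value. No paired analysis was possible because each genotype has a single library. The alternatives for gamma-delta T cells were not run, since the class was not set apart. For the sums, 77 of 98 alternative values stayed inside the main counting interval, 16 moved outside it and 5 reversed. All 18 alternative medians stayed within the spread of the members. Of 815 member ratios 703 stayed inside the main interval, 106 moved and 6 reversed. A reversal was scored only where the main interval lay off 1 and, for a member, the ratio was past 1.5-fold. Other turns of direction were counted as stayed or moved. An example was Lamp1 in microglia-like cells, at 1.13 in the main sums and at cell means of 11.5 per 10000 in WT and 11.1 in twi. Of 180 shares of cells, 151 moved on thinning, and of 28 list counts 8 moved with at least 50 UMIs per gene. The causes were not tested.

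Thinning to 1000 UMIs gave sums of 0.910 over all cells, 1.15 in microglia-like, 1.02 in neutrophil-like and 1.58 in CD8 T-like cells, and Lamp1 in neutrophil-like cells at 1.15. Equal weight per cell gave sums of 0.946 over all cells, 1.12 in microglia-like and 1.01 in neutrophil-like cells, and Lamp1 in the latter at 1.28. Leaving mitochondrial, ribosomal protein and haemoglobin genes out of the total gave 1.20 over all cells and 1.62 in microglia-like cells, and median-of-ratios scaling 1.36 in monocyte-like cells.

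Cells with a Y transcript and no Xist gave sums of 1.35 over all cells and 2.30 in microglia-like cells (16 WT and 4 twi cells). The sums were 1.14 in monocyte-like (20 and 15 cells), 0.611 in neutrophil-like (72 and 7) and 0.754 in NK-like cells (42 and 23). Ctsh over all such cells was at 1.03, and Ctss in the neutrophil-like ones at 0.604.

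These alternatives were chosen after seeing the data. At most 1 marker of any other lineage gave sums of 0.921 in microglia-like, 1.41 in monocyte-like and 0.734 in neutrophil-like cells, with microglial Ctsz at 0.927 and Ctsd at 0.982. The WT microglia-like cells kept there included the cell at 1061 per 10000. In microglia-like cells, at most 3 such markers gave 1.31, a UMI of P2ry12 or Tmem119 gave 1.64, and both with equal weight per cell gave 1.29.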

Other observations

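The 7 WT and 13 twi barcodes over the mitochondrial limit carried the 10 members at 2307 and 1897 CPM, a ratio of 0.823 (0.450 to 1.54).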
